A study of Mus musculus with 12 samples.

Results

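Aminoacyl-tRNA synthetases join each amino acid to its transfer RNA (tRNA), and their mRNAs were followed here in mouse macrophages given interferon gamma (IFNγ). The set of 38 genes was chosen by gene symbol from the 46729 entries of the expression table. It holds 20 genes of cytosolic enzymes, 16 of mitochondrial enzymes and 2 scaffold genes. The cytosolic enzymes include Gars and Kars, each of which is known to serve both compartments from 1 gene. All 38 symbols were found, each in 1 entry, and 37 passed the filter on low values. Mars2, the mitochondrial methionine enzyme, was under it.

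The macrophages were derived from bone marrow of strain C57BL6 and grown with interleukin-3 and L-929 conditioned medium as the source of colony-stimulating factor over 10 days, and their RNA was sequenced. There were 4 groups, untreated cells and those kept for 8 h with IFNγ at a low (0.2 U/ml), middle (2 U/ml) or high dose (20 U/ml). Each group had 3 libraries, and the cytokine came in fresh medium. The label of the highest dose lacks the volume and was read as U/ml. The labels do not say whether the 3 libraries came from separate animals or cultures. The deposited table holds 1 value per entry and group, in FPKM, the number of fragments set against transcript length and library size. No difference drawn from it therefore has a replicate check, an error or a p-value. Fewer cells of a type and less RNA per cell cannot be told apart in such bulk values.

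Each enzyme recognises 1 amino acid, except that Eprs carries the glutamate and the proline activity in 1 protein. In mammals several cytosolic enzymes sit in a multi-synthetase complex held together by scaffold proteins, while the mitochondrial enzymes are mostly separate gene products imported into the organelle. WARS, the tryptophan enzyme, is a known IFNγ-inducible gene, and EPRS takes part in the GAIT complex that silences some inflammatory mRNAs after IFNγ in human monocytic cells. Many cytosolic synthetase genes are also known targets of ATF4, the transcription factor of the amino acid and stress response.

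Ratios are differences of log2(FPKM + 1), and higher or lower means a ratio of at least 1 in size, a 2-fold difference on this scale. The filter, a mean of at least 1 FPKM and no group listed at 0, kept 11580 entries, whose median log2 ratio to untreated cells was 0.00 at the low dose and 0.01 at both others. The depth of the libraries is unknown. The sums of FPKM were 769698 without IFNγ and 1025970, 783701 and 904993 from the low to the high dose. Of 7 known IFNγ response entries, 5 were higher at the low dose and 7 at each of the others. Of 8 macrophage markers, none was under 1 FPKM in every group, although Lyz2 was listed at 0 in 3 of the 4 groups. No group reached 1 FPKM for 8 of 8 T and NK cell, 5 of 5 mast cell and basophil, 4 of 4 erythroid, 5 of 6 stromal and endothelial, 5 of 8 neutrophil, 3 of 6 B cell and 3 of 5 dendritic cell markers. The summed level of the neutrophil list was 17.2 FPKM without IFNγ and 21.6, 29.6 and 35.7 from the low to the high dose, of which S100a8 made 13.3 without IFNγ and 18.0, 25.6 and 30.4. The dendritic cell list summed to 1.92 FPKM without IFNγ and 4.01, 7.90 and 48.3 from the low to the high dose, of which the merged entry of Clec1b and Clec9a made 47.1 FPKM at 20 U/ml. The part of these markers in the results was not tested.

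Wars, the gene of the cytosolic tryptophanyl-tRNA synthetase (chromosome 12, 108860030 to 108894174, minus strand, GRCm38), was at 23.4 FPKM without IFNγ, 36.8 at the low dose, 78.4 at the middle dose and 128 at the high dose. Each of the 4 values lay above the one before. Its log2 ratio to untreated cells was 0.63, 1.70 and 2.41 from the low to the high dose, where the FPKM was 5.48 times the untreated value. The largest step was that from 0.2 to 2 U/ml, with a log2 ratio of 1.07, and the step from 2 to 20 U/ml had 0.70. At 20 U/ml, 142 of 9248 protein-coding genes had a ratio at or above that of Wars, itself included. At 0.2 U/ml this number was 749.

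Among the 20 cytosolic genes Wars stood near the bottom in untreated cells and near the top at the highest dose. By FPKM, which is per length, it ranked 3rd from the top at 20 U/ml, against 19th in untreated cells, where only Iars was lower. Its share of the summed FPKM of the 20 genes was 7.97% at 20 U/ml, against 2.07% without IFNγ. The mitochondrial tryptophan enzyme is encoded by a separate gene, Wars2 (chromosome 3, 99141068 to 99239186). Wars2 was at 2.11 FPKM without IFNγ, 2.26 at the low dose, 2.04 at the middle dose and 1.97 at the high dose. These 4 values lay close together, and the Wars level was 65.3 times that of Wars2 at 20 U/ml, against 11.1 times in untreated cells.

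**Figure D1:**
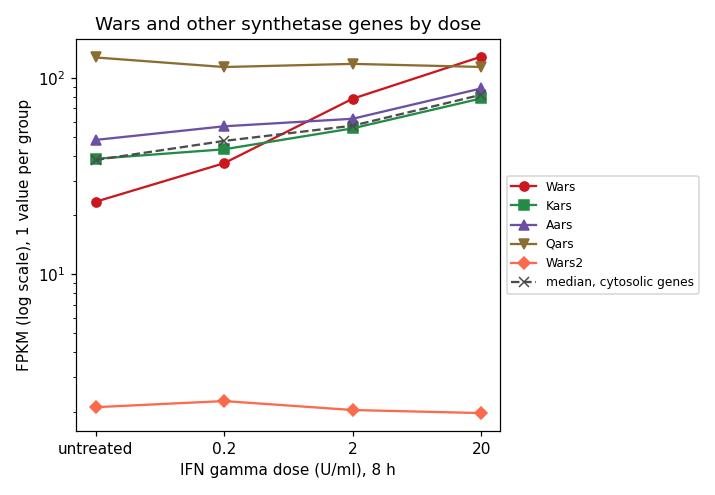
FPKM on a log scale, 1 value per group, against the IFNγ dose for Wars, Kars, Aars, Qars and Wars2, with the median of the 20 cytosolic genes as a dashed line. Wars reaches 128 FPKM at 20 U/ml, above Qars at 114, while Wars2 stays between 1.97 and 2.26.

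Of the 20 cytosolic genes, 2 passed the size rule upward and 0 downward at 20 U/ml, beside 6.51% of all entries used that were higher and 2.94% that were lower. These were Wars and, at the edge of the rule, Kars. Kars, the lysine enzyme, was at 38.8 FPKM without IFNγ, 43.3 at the low dose, 55.4 at the middle dose and 78.7 at the high dose, and its log2 ratio at 20 U/ml was 1.00. With the groups scaled to their upper quartile, by quantile normalization or to equal sums of FPKM, the Kars ratio was 0.86, 0.85 and 0.77 in that order, which is under the rule. At 2 U/ml only Wars passed, beside 2.5% of all entries that were higher and 0.76% that were lower. At 0.2 U/ml no cytosolic gene passed, beside 5.23% of all entries that were higher and 0.328% that were lower.

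Below the size rule most cytosolic genes still lay on the higher side. At 20 U/ml 18 of 20 had a ratio above 0, beside 5923 of all 11580 entries used. Their median was 0.43, or 0.43 for the 19 genes without Wars, beside a median of 0.01 over all entries. The 3 scalings gave cytosolic medians of 0.29, 0.28 and 0.21 in the same order, each above the median of all entries by 0.35 to 0.41. At 2 U/ml 17 of 20 were above 0, beside 5972 of all entries, with a median of 0.30 beside 0.01 over all entries. At 0.2 U/ml 17 of 20 were above 0, beside 5820 of all entries, with a median of 0.17 beside 0.00 over all entries. With equal sums of FPKM, however, only 5 of 20 were above 0, with a median of -0.24 beside -0.36 over all entries.

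Aars, the alanine enzyme, which shares its entry with the exosome gene Exosc6, was at 48.4 FPKM without IFNγ, 56.8 at the low dose, 62.0 at the middle dose and 88.5 at the high dose. The values of this merged entry cannot be assigned to either gene. Farsa, the catalytic subunit of the phenylalanine enzyme, was at 37.7 FPKM without IFNγ, 40.4 at the low dose, 53.9 at the middle dose and 65.3 at the high dose. The other subunit of that enzyme is encoded by Farsb, which shares an entry with 4833412K13Rik. The Farsb entry was between 37.6 and 40.6 FPKM in all 4 groups. These values also belong to a merged entry and cannot be assigned to Farsb alone. At 20 U/ml Farsa had a log2 ratio of 0.78 and the Farsb entry one of 0.02.

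Gars, the glycine enzyme, was at 59.5 FPKM without IFNγ and at 61.8, 79.7 and 97.2 from the low to the high dose. Yars, the tyrosine enzyme, was at 31.9 FPKM without IFNγ and at 39.0, 43.6 and 49.8 at the 3 doses in rising order. Tars, the threonine enzyme, was at 27.2 FPKM without IFNγ and at 28.0, 35.0 and 41.8. For these 3 genes the value at 20 U/ml was the highest of the 4, with log2 ratios of 0.70, 0.63 and 0.60. Vars, the valine enzyme, and Sars, the serine enzyme, had smaller log2 ratios of 0.43 and 0.32 at 20 U/ml. Nars, the asparagine enzyme, was between 91.1 and 103 FPKM in all groups, and Hars, the histidine enzyme, between 35.6 and 45.7.

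Cars, the cysteine enzyme, had another pattern. It was the highest cytosolic gene in every group, at 149 FPKM without IFNγ, 263 at the low dose, 151 at the middle dose and 213 at the high dose. Its highest deposited value was at the lowest dose, with a log2 ratio of 0.81 to untreated cells. By contrast Wars had its lowest treated value at that dose.

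The 7 remaining cytosolic genes, like Kars, encode enzymes of the multi-synthetase complex. Among its 8 enzyme genes the median log2 ratio at 20 U/ml was 0.31, beside 0.56 among the 12 outside it, a description of genes that are not replicates. Rars, the arginine enzyme, was at 49.7 FPKM without IFNγ and at 54.4, 58.9 and 85.5 from the low to the high dose. Iars, the isoleucine enzyme and the lowest cytosolic gene in each group, was at 17.0 FPKM without IFNγ and at 14.3, 25.5 and 23.4. Eprs was at 35.0 FPKM without IFNγ and at 49.9, 37.4 and 42.0, so that its highest value was at 0.2 U/ml. Mars and Lars, the methionine and leucine enzymes, also had their highest values at 0.2 U/ml. Mars was at 125 FPKM there, against 90.6 without IFNγ, and Lars at 35.3 against 24.9. The low-dose group had the largest sum of FPKM, and the peaks of Eprs, Mars and Lars were not checked under the scalings. Qars and Dars, the glutamine and aspartate enzymes, were the 2 cytosolic genes with a ratio below 0 at 20 U/ml, at 114 FPKM against 127 without IFNγ for Qars and 34.1 against 35.4 for Dars.

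The scaffold genes stayed near their untreated values at 2 and 20 U/ml. Aimp1 was at 58.5 FPKM without IFNγ, 96.4 at the low dose, 59.1 at the middle dose and 63.4 at the high dose. Aimp2 was at 27.0 FPKM without IFNγ and at 32.5, 27.4 and 31.7 from the low to the high dose. Both had their highest value at 0.2 U/ml, with log2 ratios of 0.71 and 0.26. These peaks were not checked under the scalings either.

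**Figure D2:**
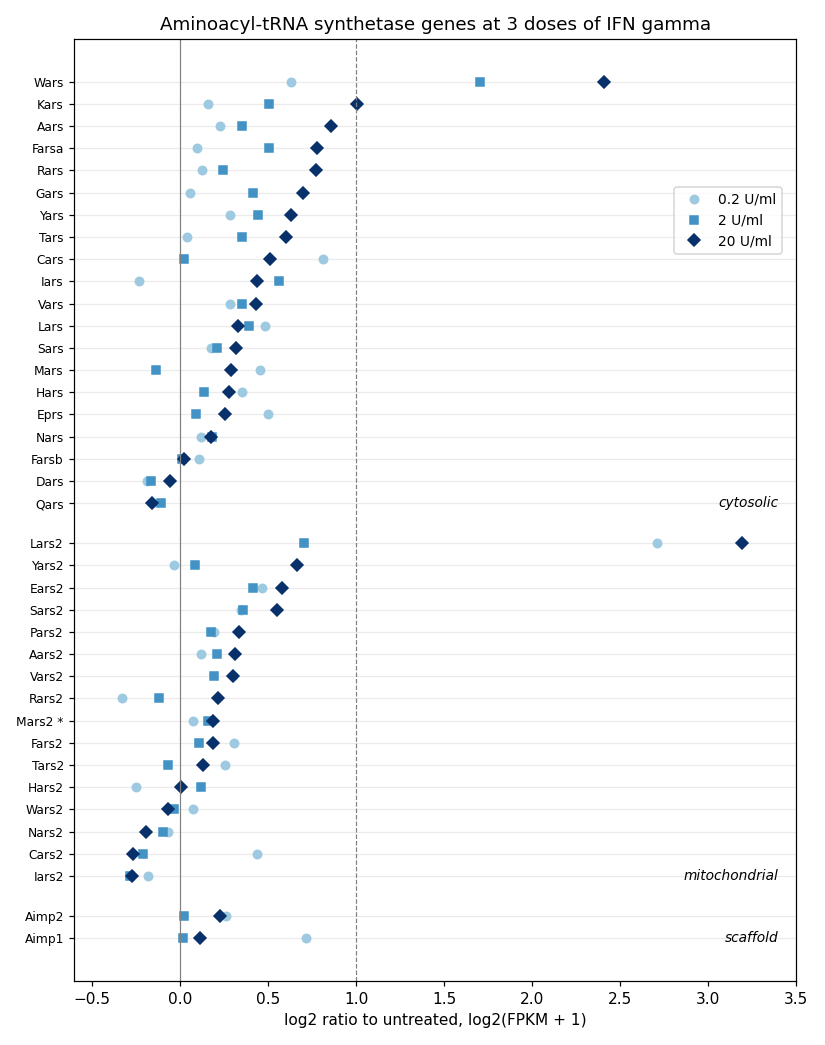
Log2 ratio to untreated cells on the log2(FPKM + 1) scale at 0.2, 2 and 20 U/ml for the 38 genes, ordered within each class by the ratio at 20 U/ml. The dashed line marks a log2 ratio of 1, and the star marks Mars2, which was under the filter. At 20 U/ml Wars (2.41), Kars (1.00) and Lars2 (3.19) reach the line.

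FPKM was higher than in the group before at every step from untreated to 20 U/ml in 10 of 20 cytosolic genes and 2 of 15 mitochondrial genes, beside 9.28% of all entries used. The 10 were Aars, Farsa, Gars, Kars, Rars, Sars, Tars, Vars, Wars and Yars. Such an order has no replicate check, and it depended on the scaling. It held for 6 cytosolic genes with upper-quartile scaling, 4 with quantile normalization and 1 with equal sums of FPKM, which was Wars. For the 15 mitochondrial genes these counts were 3, 4 and 0, and the shares of all entries were 6.34%, 6.70% and 3.15%. With quantile normalization both counts were thus 4.

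The mitochondrial enzyme genes were set against the cytosolic ones. Their median level was 11.4 FPKM at 20 U/ml, against 8.30 without IFNγ, and that of the cytosolic genes was 82.1 FPKM, against 38.2 without IFNγ. The median log2 ratio at 20 U/ml was 0.21 over the 15 mitochondrial genes used, or 0.20 without Lars2, and 0.43 over the cytosolic genes, a difference of 0.22. That difference was between 0.18 and 0.23 under the alternatives. At 2 U/ml the mitochondrial and cytosolic medians were 0.11 and 0.30, and at 0.2 U/ml they were 0.19 and 0.17. With equal sums of FPKM those at 0.2 U/ml were -0.14 and -0.24, beside -0.36 over all entries. With equal sums of FPKM the mitochondrial median at 20 U/ml was -0.01, beside -0.19 over all entries.

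**Figure D3:**
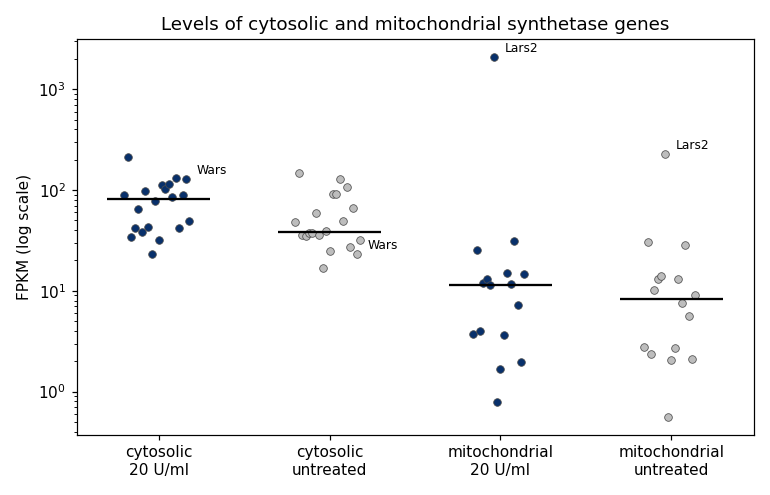
FPKM on a log scale of the 20 cytosolic and 16 mitochondrial enzyme genes at 20 U/ml and in untreated cells, with 1 point per gene and a bar at the median. The cytosolic genes lie above most mitochondrial ones, and Lars2 stands alone at 2095 FPKM at the high dose, against 228 without IFNγ.

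Of the 15 mitochondrial genes used, 1 was higher and 0 lower at 20 U/ml, beside 6.51% and 2.94% of all entries used. At 0.2 U/ml 1 was higher and 0 lower, beside 5.23% and 0.328%. At 2 U/ml none passed, beside 2.5% higher and 0.76% lower. Lars2 was the gene that passed at both doses. Yars2, the tyrosine enzyme of the organelle, was at 9.0 FPKM without IFNγ, 8.76 at the low dose, 9.61 at the middle dose and 14.8 at the high dose, so that the highest dose stood apart with a log2 ratio of 0.66. Ears2, the glutamate enzyme, was at 2.35 FPKM without IFNγ and at 3.63, 3.46 and 3.99 from the low to the high dose. Sars2, the serine enzyme, was at 7.61 FPKM without IFNγ and at 9.93, 10.0 and 11.6. In Ears2 and Sars2 the 3 treated values lay above the untreated one. Pars2, the proline enzyme, was at 2.70 FPKM without IFNγ and at 3.23, 3.17 and 3.65. Rars2, Fars2, Tars2, Hars2, Vars2 and Aars2, the enzymes for arginine, phenylalanine, threonine, histidine, valine and alanine, had log2 ratios between 0.00 and 0.31 at 20 U/ml. Mars2, the lowest member in every group, was at 0.565 FPKM without IFNγ and at 0.644, 0.743 and 0.783 from the low to the high dose. Iars2, Cars2, Nars2 and Wars2 had ratios below 0 at 20 U/ml, and the lowest of these was -0.27 for Iars2 and for Cars2. Cars2 was also the mitochondrial gene with the largest ratio in size after Lars2 at the step from 0.2 to 2 U/ml, at 26.4 FPKM at 2 U/ml against 41.9 at 0.2 U/ml.

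Lars2, the gene of the mitochondrial leucine enzyme (chromosome 9, 123366927 to 123462666, plus strand), was the most abundant member in every group and the one that varied most. It was at 228 FPKM without IFNγ, 1500 at the low dose, 372 at the middle dose and 2095 at the high dose. The values did not follow the dose, since 0.2 and 20 U/ml were high and 2 U/ml was the closest to the untreated value. Its log2 ratio to untreated cells was 2.71, 0.70 and 3.19 from the low to the high dose, and from 0.2 to 2 U/ml it was -2.01, beside 6.26% of all entries lower and 1.51% higher at that step. From 2 to 20 U/ml it was 2.49, beside 2.9% of all entries that were higher and 1.11% that were lower. At 0.2 U/ml only 6 of 9248 protein-coding genes, itself included, had a ratio at or above that of Lars2.

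Entries with a similar course were looked up after the Lars2 values had been seen, as the 10 with the smallest distance in the 3 log2 ratios to untreated cells. Their likeness to Lars2 therefore follows from the choice. Of these 10, 9 were single genes and all 9 were noncoding, whereas 9248 of all 11580 entries used were single protein-coding genes. This count was not tested. Nearest was Rpph1, the RNA of ribonuclease P that trims tRNA precursors, at 10.3 FPKM without IFNγ, 84.5 at the low dose, 18.1 at the middle dose and 112 at the high dose. Rmrp, the RNA of ribonuclease MRP, was at 29.9 FPKM without IFNγ and at 162, 50.3 and 224 from the low to the high dose. Rny3, a Y RNA, and Rn7sk, the 7SK RNA that holds back a transcription elongation factor, were also high at 0.2 and 20 U/ml and low in the other groups. The same held for Gm26917, annotated as a long noncoding RNA on chromosome 17, at 66.1 FPKM without IFNγ and at 431, 99.9 and 405. Across 127 entries of small noncoding RNA genes the median log2 ratio was 0.68, -0.09 and 0.16 from the low to the high dose. Of these 127, 58 were higher at the low dose, 19 at the middle dose and 36 at the high dose, beside 5.23%, 2.5% and 6.51% of all entries. In the same order 10, 19 and 15 were lower, beside 0.328%, 0.76% and 2.94% of all entries. From the low to the middle dose 63 were lower and 14 higher, beside 6.26% and 1.51% of all entries. Some of the class thus shared parts of the Lars2 course, and other members went the other way.

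The longest annotated Lars2 transcript, of 3894 nt, shares an identical run of 52 nt with Gm15564 in the same orientation. Gm15564 is annotated as antisense RNA on chromosome 16. Which Lars2 transcript the cells expressed was not determined. The run lies in the 3′ untranslated region in exon 21 of 21, at chromosome 9, 123462048 to 123462099. The longest identical runs in either orientation with Gm26917 and with the mitochondrial ribosomal RNA genes mt-Rnr1 and mt-Rnr2 were 12, 14 and 12 nt. The run with Gm26917 was on the opposite strand and that with mt-Rnr1 in the same orientation, while mt-Rnr2 had 12 nt in each. Gm15564 was at 0.805 FPKM without IFNγ and at 8.98, 1.42 and 3.81 from the low to the high dose, again with 0.2 and 20 U/ml above the other groups. The part of such shared sequence, or of the noncoding RNAs, in the Lars2 values was not tested. Read positions were not analysed here, and the Lars2 value is that of the whole entry.

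**Figure D4:**
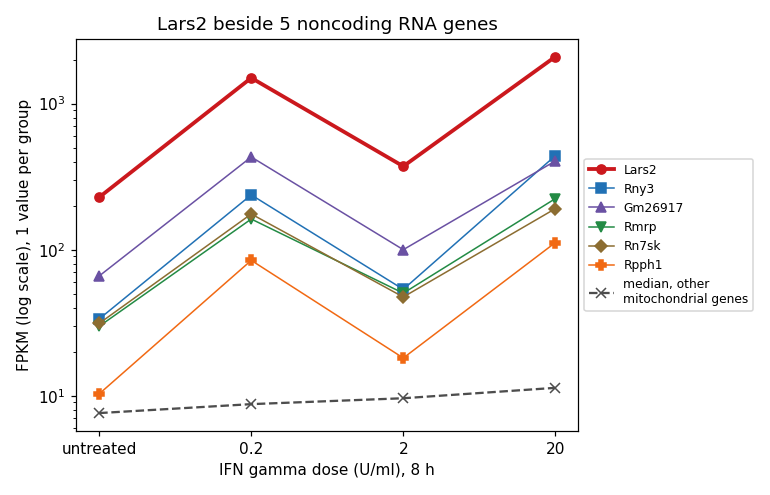
FPKM on a log scale, 1 value per group, against the IFNγ dose for Lars2 and 5 noncoding RNA genes chosen for their likeness to it. The median of the other 15 mitochondrial enzyme genes is a dashed line. Lars2 and the 5 RNAs are high at 0.2 and 20 U/ml and low in untreated cells and at 2 U/ml, while the dashed line stays between 7.61 and 11.3 FPKM.

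Promoter windows from RefSeq (GRCm38.p6), 250 bases before to 50 after the start of the gene, matched 29 of the 38 genes, with Mars found under its synonym Mars1. Cars, Hars, Lars, Nars, Rars, Vars, Wars, Hars2 and Pars2 had none. The windows were searched on both strands for the gamma-activated site (TTCNNNGAA), the interferon-stimulated response element (GAAA, 2 bases of any kind, GAAA) and an ATF4 element (TGATGNAA). The ATF4 letters were found in 5 of 29 genes, or 17.2%, beside 3.97% of 32851 windows of all genes. The 5 were Aars, Gars, Iars, Tars and Yars, all cytosolic and all on the list of synthetase genes known as ATF4 targets. The gamma-activated site was found in Aars, Kars and Nars2, or 10.3%, beside 8.3% of all windows, and the interferon-stimulated element in Qars alone, 1 of 29 genes, beside 3.44% of all windows. A match describes letters only and is not a bound site.

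The Kars and Aars windows are shown because these genes had the largest cytosolic ratios at 20 U/ml after Wars, and the other 4 because they hold the ATF4 letters. Sequences run 5′ to 3′ on the strand of the gene and end 30 bases into the transcript, and capitals mark the motif matches.
Kars (chr8:112011325-112011604, minus strand): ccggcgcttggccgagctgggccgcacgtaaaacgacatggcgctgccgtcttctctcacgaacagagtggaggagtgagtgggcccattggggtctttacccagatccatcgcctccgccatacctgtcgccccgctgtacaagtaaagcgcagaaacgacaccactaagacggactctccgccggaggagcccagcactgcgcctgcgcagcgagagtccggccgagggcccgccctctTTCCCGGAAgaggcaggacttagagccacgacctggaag
Aars (chr8:111033592-111033871, plus strand): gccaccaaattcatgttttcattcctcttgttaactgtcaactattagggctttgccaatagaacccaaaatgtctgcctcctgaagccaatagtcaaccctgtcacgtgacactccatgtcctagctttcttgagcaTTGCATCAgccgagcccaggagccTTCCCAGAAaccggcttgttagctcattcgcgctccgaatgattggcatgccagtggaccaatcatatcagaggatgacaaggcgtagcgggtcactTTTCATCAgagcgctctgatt
Gars (chr6:55037951-55038030, plus strand): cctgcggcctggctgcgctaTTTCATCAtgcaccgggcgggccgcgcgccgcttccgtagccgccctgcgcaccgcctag
Iars (chr13:49682080-49682159, plus strand): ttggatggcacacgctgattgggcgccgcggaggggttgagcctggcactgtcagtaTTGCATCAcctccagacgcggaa
Tars (chr15:11399629-11399708, minus strand): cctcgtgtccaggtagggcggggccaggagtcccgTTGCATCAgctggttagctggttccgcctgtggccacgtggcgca
Yars (chr4:129189853-129189932, plus strand): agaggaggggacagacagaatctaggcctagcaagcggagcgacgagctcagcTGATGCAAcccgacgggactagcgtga
In Kars the capitals are a gamma-activated site, TTCCCGGAA, that starts 9 bases before the start of the gene. In Aars the middle capitals are a gamma-activated site, TTCCCAGAA, 88 bases before the start, and the outer ones are ATF4 letters read on the opposite strand. In Gars, Iars and Tars the ATF4 letters are also on the opposite strand, and in Yars they are on the strand of the gene. The ATF4 letters were TGATGCAA in Iars, Tars and Yars, and once in Aars, and TGATGAAA in Gars and at the second place in Aars. No match overlapped another. The median log2 ratio at 20 U/ml was 0.44 for the 13 cytosolic genes on the ATF4 list, Wars included, and 0.28 for the 7 off it.

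Other genes of the charging pathway and of amino acid supply were taken from lists. Of 17 further tRNA charging genes, 2 were higher at 20 U/ml and 0 lower, beside 6.51% and 2.94% of all entries, with a median of 0.09. Ppa1, the cytosolic pyrophosphatase that removes the pyrophosphate set free by charging, was at 12.8 FPKM without IFNγ and at 16.5, 22.1 and 53.6 from the low to the high dose. Dtd1, which removes D-amino acids from tRNA, was at 7.98 FPKM without IFNγ and at 8.67, 11.0 and 19.8. Eef1e1, the remaining scaffold of the multi-synthetase complex, was at 30.7 FPKM at the high dose, against 24.7 without IFNγ. The merged entry of Tarsl2 and Tm2d3, Qrsl1 and Prorsd1 had the next largest log2 ratios of the list, 0.57, 0.52 and 0.45.

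Of 20 ATF4 targets and genes of the amino acid response, 17 were used, and 6 were higher and 0 lower at 20 U/ml, beside 6.51% and 2.94% of all entries, with a median log2 ratio of 0.65. Psat1 of serine synthesis was at 115 FPKM, against 34.5 without IFNγ. Asns, asparagine synthetase, was at 133 FPKM, against 63.4 without IFNγ. Trib3, Nupr1, Chac1 and Mthfd2 had log2 ratios of 1.13, 1.08, 1.05 and 1.02, and Aldh18a1, Slc7a1 and Sesn2 followed with 0.89, 0.67 and 0.65. With upper-quartile scaling, quantile normalization and equal sums of FPKM 1, 3 and 1 of the 17 passed, beside 629, 658 and 579 of all 11580 entries. The list median stayed between 0.44 and 0.57. At 0.2 U/ml none passed, beside 5.23% of all entries that were higher and 0.328% that were lower, with a list median of 0.03. Atf4 itself was at 227 FPKM at the high dose, against 157 without IFNγ, and Ddit3, another stress factor, at 72.5 against 74.6.

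Of the kinases that act on eIF2α and their counterparts, 2 of 8 entries were higher at 20 U/ml and 0 lower, again beside 6.51% and 2.94%. Eif2ak2, the interferon-inducible kinase PKR, was at 44.6 FPKM, against 14.4 without IFNγ. Ppp1r15b, a regulatory subunit of the eIF2α phosphatase, was at 41.4 against 18.1. Eif2ak4, the GCN2 kinase that senses uncharged tRNA, was at 2.74 against 3.00. Eif2s1, which encodes eIF2α, Ppp1r15a and Eif2ak3 had log2 ratios of 0.60, -0.58 and -0.32. The log2 ratio of Ppp1r15b was under 1 with equal sums of FPKM, where 1 entry, Eif2ak2, passed.

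Of 15 genes of tryptophan use and transport, 6 were used and 1 was higher at 20 U/ml, beside 6.51% of all entries. Ido1, which opens the tryptophan ring and is a known IFNγ target in other cells, was at 0.00633 FPKM at 20 U/ml and listed at 0 in untreated cells. Haao, a later enzyme of the same pathway, was at 4.12 FPKM at the high dose, against 1.43 without IFNγ, a log2 ratio of 1.07 that was under 1 with upper-quartile scaling and with equal sums. Slc3a2, the heavy chain of a large neutral amino acid transporter, was at 919 FPKM, against 535 without IFNγ. Slc36a4, an amino acid transporter, and the merged entry of Afmid had log2 ratios of -0.53 and 0.38. Slc7a5, the light chain that pairs with Slc3a2, was on the list, but its symbol was not found among the entries. Of the GAIT partners of EPRS, Gapdh was at 1865 FPKM at the high dose, against 1435 without IFNγ, and the merged entries of Rpl13a and of Syncrip had log2 ratios of -0.22 and -0.16. Of 10 elongation factor entries none passed at 20 U/ml, beside 6.51% of all entries that were higher and 2.94% that were lower. At 0.2 U/ml the merged entry of Eef1a1 and Gm26377 passed, with a log2 ratio of 1.52, beside 5.23% of all entries, but not with quantile normalization. At 20 U/ml Gfm1, the merged Eef1a1 entry and the merged entry of Eef1b2 had log2 ratios of 0.50, -0.34 and -0.32.

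The authors' deposited table of a comparison called treated against untreated names no dose, and its values are given apart. In the authors' deposited table Wars had a log2 fold change of -1.16 with a q-value of 9.95e-05. In the authors' deposited table, at a q-value under 0.05, 5 cytosolic genes had a positive and 9 a negative log2 fold change, 1 mitochondrial gene a positive and 11 a negative one, and both scaffold genes a negative one, beside 35.1% of 12854 tested entries positive and 33.8% negative. In the authors' deposited table Psmb8, an immunoproteasome subunit gene, had a log2 fold change of -2.17 and Tap1, a peptide transporter gene, one of -1.08, while the log2 ratio of Psmb8 at 20 U/ml in the expression table was 2.47. Irf1, Gbp2 and Socs1, other IFNγ response genes, had 0.38, 0.28 and 0.47 in the authors' deposited table, with q-values of 0.0747, 0.310 and 0.0790. The sources used here name the 2 conditions of that comparison only as treated and untreated, with no dose, so no direction is drawn from it.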

How the data were processed

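The labels list 12 libraries in 4 groups of 3. The authors deposited FPKM, 1 value per entry and group, per the file headers; the untreated column names no unit and was read as FPKM from its range. TopHat2 2.1.1, Cufflinks 2.1.1, Cuffdiff 2.1.1 and the build mm10 are named in the submitters' processing notes. The sources used here do not give whether a value pools the 3 libraries or whether strand was used, so overlapping antisense genes cannot be told apart. The authors also deposited a comparison of genes with a log2 fold change and with p-value and q-value columns, per the file headers; 2 value columns in it match no single group and were left unused.

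Ratios of log2(FPKM + 1) were computed with pandas 2.3.3 and numpy 2.4.6, and the code was tested on simulated data. The pseudocount of 1 understates differences of low genes. The filter left out 272 entries listed at 0 in a group. With 1 value per group no test was run, and the size rule stands in for one. The 38 members, the lists, the size rule and the rule for named genes were chosen with earlier results of these data known. That rule took members past the size rule in any comparison, the 5 cytosolic and 5 mitochondrial members with the largest ratios at 20 U/ml, the scaffold genes and the extremes by FPKM; other members are named to account for all. From other lists it took entries past the size rule and up to 3 more with the largest ratios. Eef1e1, Atf4, Ddit3, Eif2ak4, Ido1 and the entries resembling Lars2 were named outside it, after their values were seen. Slc7a5, which had no entry, was also named outside it. Gene positions came from GENCODE M21 (GRCm38), and all 38 overlapped the deposited loci. Alternatives were another pseudocount, other filters, 3 scalings and leaving out merged entries.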

Additional observations from a re-analysis of the deposited data

How the results depend on the processing

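Over 34 results and 8 alternatives, 263 of 272 values stayed within 1.5 times of those reported, a limit used because there is no replicate spread. For log2 ratios it was applied to the linear fold, so a small median could change sign within it. With equal sums of FPKM the mitochondrial median was -0.01 at 20 U/ml in place of 0.21 and -0.14 at 0.2 U/ml in place of 0.19. The cytosolic median was then 0.21 at 20 U/ml in place of 0.43 and -0.24 at 0.2 U/ml in place of 0.17. From 2 to 20 U/ml the cytosolic and mitochondrial medians were -0.03 and -0.06 in place of 0.18 and 0.11, and the mitochondrial one from 0.2 to 2 U/ml was 0.25, or 0.02 with quantile normalization, in place of -0.05. The cytosolic minus mitochondrial difference was 0.01 at 0.2 U/ml with no filter on the mean, in place of -0.03, and -0.02 from 2 to 20 U/ml with quantile normalization, in place of 0.07. The count of cytosolic genes higher at 20 U/ml was 1 in place of 2 with upper-quartile scaling, quantile normalization and equal sums of FPKM, because Kars fell below a log2 ratio of 1. The count of cytosolic genes rising at every dose step was 6, 4 and 1 under these 3 scalings in place of 10. For mitochondrial genes it was 1 at a mean of at least 5 FPKM, 4 with quantile normalization and 0 with equal sums, in place of 2. The alternatives to the counts of rising genes were chosen after seeing the data. Scaling moved the median log2 ratio of all entries at 20 U/ml to -0.11, -0.07 and -0.19 in the same order, and at 0.2 U/ml to -0.10, -0.10 and -0.36. The Wars ratio at 20 U/ml was between 2.18 and 2.45 under the 8 alternatives, and at 0.2 U/ml between 0.23 and 0.65. Counts over all entries that moved by more than 1.5 times were, with a pseudocount of 0.1, 539 lower at 20 U/ml in place of 340 and 174 lower at 2 U/ml in place of 88, and with equal sums 589 lower at 20 U/ml and 322 higher at 0.2 U/ml in place of 606. At 0.2 U/ml 71 entries were lower with a pseudocount of 0.1, 24 at a mean of at least 5 FPKM, 106 with entries listed at 0 and 103 with equal sums, in place of 38. At 2 U/ml 154 were lower with entries listed at 0, and 58 with a mean of 5 FPKM or more. Between the low and the middle dose, in place of 175 higher and 725 lower, 275 were higher with a pseudocount of 0.1, and 490 higher and 412 lower with equal sums. From 2 to 20 U/ml, in place of 128 lower, 248 were lower with a pseudocount of 0.1, 203 with entries listed at 0 and 231 with equal sums. No paired analysis was possible because the table holds 1 value per group, and leaving out a replicate was not possible for the same reason. The depth is unknown, so no counting error can be given.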
